A study of Homo sapiens with 12 samples.

Results

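The 10 genes described here move copper into, out of and within human cells, and were selected by symbol from the 14866 genes of the deposited table. SLC31A1 and SLC31A2 are the uptake transporters, ATP7A and ATP7B the export ATPases, ATOX1, CCS, COX17 and SCO1 the carriers that hand copper to its targets, SOD1 a copper enzyme, and COMMD1 a regulator of copper transporter trafficking. All 10 were found, and all 10 passed the filter on low values. They were measured by poly(A) RNA sequencing in SHI-1, an established acute myeloid leukaemia cell line that carries the MLL-AF6 fusion. Cells were exposed for 16 h to DMSO vehicle, to 0.3 µM disulfiram (DSF) given with 1 µM copper, to 5 µM niclosamide (NSM), or to both drugs (DSF+NSM), with 3 independent experiments for each of the 4 groups. Whether the DMSO and NSM cultures also received copper is not given in the sources used here, and every result below refers to 1 cell line at 1 time point. DSF was given only with copper, and DSF below stands for both, so the part of the added copper cannot be told apart.

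Copper enters mammalian cells as the reduced ion, chiefly through SLC31A1 (CTR1), and is passed between binding sites by metallochaperones so that little of it is free. ATOX1 carries copper to the ATPases ATP7A and ATP7B in the secretory pathway, which load secreted copper enzymes and move to vesicles or the cell surface when copper is in excess. CCS loads SOD1, and COX17 passes copper to SCO1 and other assembly factors of cytochrome c oxidase in mitochondria. Copper balance is known to rest largely on the trafficking and turnover of these proteins, whereas an excess of metal ions acts on transcription through MTF1, which binds metal response elements in the promoters of metallothioneins and of SLC30A1. Disulfiram is metabolised to a dithiocarbamate that binds copper and can carry it across membranes.

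The values are the deposited normalised counts, which are not whole reads, and fold changes are on the log2(normalised count + 1) scale. The libraries held an estimated 10.2 to 19.0 M reads. Summed normalised counts were 14.0 to 14.4 M in the DMSO group. They were 14.9 to 15.3 M with DSF, 16.5 to 17.5 M with NSM and 22.7 to 25.6 M when the drugs were combined. Setting the sums equal instead moved the median of all genes by −0.78 on the log2 scale for DSF+NSM against DMSO and by −0.27 for NSM against DMSO. This scaling shifts all genes of a library alike. Values relative to the median gene therefore stay nearly the same by construction and are no separate check. Replicate 3 of NSM stood apart from its group, with rank correlations between libraries of a group reaching down to 0.939 in NSM, 0.9799 in DSF+NSM and 0.9926 in DSF. All 10 myeloid markers were listed, with summed normalised counts of 66656 to 75971 in DMSO, 46167 to 52296 with DSF, 31908 to 37926 with NSM and 33971 to 35238 with both drugs. This difference was carried mostly by MPO and does not stand for the list. At a limma adjusted p under 0.05, 3 of the 10 were higher and 1 was lower with DSF than in DMSO. These counts were 5 and 4 with NSM, and 3 and 2 with DSF+NSM, beside 17.8%, 49.1% and 52.8% of all tested genes in either direction. In bulk RNA fewer cells of a kind and less message per cell cannot be told apart. Of 14 markers of other cell types, 6 were not listed, MS4A1 was at 0, and the sum of the 8 listed, mostly PECAM1, ran from 669 to 1490. With DSF+NSM against DMSO, COL1A1 (log2 fold change 2.12, adjusted p = 0.000499) and CD3E (1.16, adjusted p = 0.000528) rose and PECAM1 (−0.90, adjusted p = 2.94e-05, limma) fell, and their part in the results was not tested. Ribosomal RNA genes (23 listed) took 1.88 to 3.58% of normalised counts in DMSO, 4.65 to 5.99% in DSF, 4.70 to 5.53% in NSM and 9.63 to 11.7% in DSF+NSM, and the part of these shares in the results below was not tested.

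The promoters that bear on a copper response are shown first. RefSeq sequences (GRCh38.p14) of the 250 bases before the annotated start were held for 8 of the 10 genes, SLC31A2 and SOD1 having no entry in the table used. Each was searched on both strands for the metal response element core, TGCACNC or TGCGCNC, overlapping matches being counted separately. Of all 27305 promoters, 24.7% held at least 1 match and 0.366% held 4 or more. The 5 sequences below set MT2A, the most abundant metallothionein, beside the importer, a cytosolic chaperone and both mitochondrial chaperones of the set. They are written 5′ to 3′ on the gene's strand, with matches in capitals. RefSeq starts of ATOX1, COX17 and SCO1 lie inside the longer GENCODE gene spans given below.
MT2A promoter (chr16:56608334-56608583, plus strand): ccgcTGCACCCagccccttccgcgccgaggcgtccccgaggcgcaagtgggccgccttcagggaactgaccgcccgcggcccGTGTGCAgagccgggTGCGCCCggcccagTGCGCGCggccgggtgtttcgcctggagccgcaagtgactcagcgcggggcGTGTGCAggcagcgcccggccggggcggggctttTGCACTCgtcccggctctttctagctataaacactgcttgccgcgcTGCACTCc
SLC31A1 promoter (chr9:113221294-113221543, plus strand): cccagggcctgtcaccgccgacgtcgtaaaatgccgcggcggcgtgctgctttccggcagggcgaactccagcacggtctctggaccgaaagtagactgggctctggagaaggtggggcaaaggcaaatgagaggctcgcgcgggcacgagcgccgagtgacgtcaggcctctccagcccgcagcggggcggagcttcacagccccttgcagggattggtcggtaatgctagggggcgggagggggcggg
ATOX1 promoter (chr5:151758632-151758881, minus strand): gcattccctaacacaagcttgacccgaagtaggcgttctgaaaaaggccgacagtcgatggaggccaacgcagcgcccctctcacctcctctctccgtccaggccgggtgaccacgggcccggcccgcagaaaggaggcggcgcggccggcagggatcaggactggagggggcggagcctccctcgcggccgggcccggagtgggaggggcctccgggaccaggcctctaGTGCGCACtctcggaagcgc
COX17 promoter (chr3:119677407-119677656, minus strand): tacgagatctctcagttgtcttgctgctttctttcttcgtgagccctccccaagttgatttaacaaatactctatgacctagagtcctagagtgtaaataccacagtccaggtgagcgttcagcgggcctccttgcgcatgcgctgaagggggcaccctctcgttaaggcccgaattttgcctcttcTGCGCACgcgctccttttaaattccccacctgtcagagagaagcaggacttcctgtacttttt
SCO1 promoter (chr17:10697534-10697783, minus strand): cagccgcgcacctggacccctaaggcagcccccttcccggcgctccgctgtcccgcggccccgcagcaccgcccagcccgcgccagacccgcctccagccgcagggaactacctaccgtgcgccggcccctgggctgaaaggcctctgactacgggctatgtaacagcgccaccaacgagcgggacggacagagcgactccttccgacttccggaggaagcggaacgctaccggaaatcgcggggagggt

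The MT2A promoter held 7 matches, and those of MT1H and MT1X held 8 and 4. MT1B held 3 and SLC30A1 held 1, while MTF1 held none. Among the copper genes no promoter held more than 2: ATOX1 and CCS each held 2 overlapping matches on opposite strands, COX17 and COMMD1 held 1 each, and SLC31A1, ATP7A, ATP7B and SCO1 held none. Of the 8 promoters, 4 thus held a match, beside 24.7% of all promoters and 33.2% of those of tested genes. The GC box GGGCGG, the core recognised by SP1, stood in 4 of the 8 (3 matches each in SLC31A1 and ATP7B, 1 each in ATOX1 and SCO1), beside 66.4% of the promoters of tested genes. The antioxidant response element core TGACNNNGC stood in 1 of the 8, CCS, beside 12.3%. A match is a description of the letters in this window and not evidence of binding, and these motifs were chosen with the expression values known.

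Per kilobase of annotated exon, the DMSO levels of the 10 genes spanned from SOD1 at 1706 ± 70.9 normalised counts (SD, n = 3) down to ATP7B at 1.57 ± 0.0468. COX17 followed SOD1 at 358 ± 37.2. The next group held COMMD1 at 141 ± 10.4, SLC31A1 at 125 ± 4.43 and ATOX1 at 120.5 ± 14.4, and neighbours within it lay within about 1 to 2 SD of each other. CCS was at 91.9 ± 7.22, SLC31A2 at 69.9 ± 8.77 and SCO1 at 17.8 ± 0.458. The 2 export ATPases stood last, ATP7A at 2.13 ± 0.443. SHI-1 cells in DMSO therefore held far more message for the importer than for either exporter on this scale. Exon length counts every annotated exon of a gene, which lowers the per-kilobase level of genes with many long isoforms such as ATP7A.

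After DSF with copper, none of the 10 genes passed the test against DMSO (limma, Benjamini-Hochberg adjusted p under 0.05 over 13502 genes), while 17.8% of all tested genes did. None passed at an unadjusted p under 0.05 either. The median log2 fold change of the 10 lay at 0 to 2 decimals, beside 0.05 over all genes. Individual values ran from −0.43 (ATP7B) to 0.31 (SLC31A2), and the 95% intervals reached from −1.24 to 0.82, the lower end for ATP7B and the upper end for CCS, so changes of that size in those genes cannot be told from none. The count of 0 depends on the fit: where only the DSF and DMSO libraries entered, 5 genes passed, SLC31A1 (adjusted p = 0.0198), SLC31A2 (0.0458) and COX17 (0.0127) as higher and SCO1 (0.00922) and COMMD1 (0.0122) as lower, at the same fold changes of at most 1.24-fold up and 0.745-fold down. In that fit 54.0% of all genes passed. Weighting the libraries by their spread gave the same 5, beside 60.5% of all genes, and leaving out replicate 3 of NSM, which is in neither group, left SCO1 (0.0349) and COMMD1 (0.0401) past the threshold, beside 41.2% of all genes. The groups did not overlap for 6 of the 10 genes, beside 60.9% of all genes.

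Genes of the metal response moved far more in the same libraries. Of 13 metal-responsive genes, listed for contrast with earlier results of these data known, 9 were tested. Of these, 8 rose with DSF, 3 with NSM and 9 with DSF+NSM. Over all tested genes 17.8%, 49.1% and 52.8% passed in these comparisons, in either direction. The 3 that rose with NSM were MT1X (log2 fold change 1.86), MT1F (0.62) and MTF1 (0.61). MT2A, a metallothionein that binds excess zinc and copper in the cytosol, rose from 1576 to 1749.7 normalised counts in the DMSO libraries to between 43364 and 58170 in DSF (log2 fold change 4.84, adjusted p = 8.29e-10 with limma). MT1X rose by 7.51 and MT1F by 7.14 on this scale. SLC30A1, the zinc exporter driven by MTF1, rose by 4.19, and MTF1 itself by 0.59 (adjusted p = 0.0047). MT1B, MT1E, MT1G and MT1H were listed at 0 in all DMSO libraries, so no fold is given for them. Their highest normalised counts in DSF were 37.8, 1.7, 30.5 and 13.9, and MT1E was the gene of the 9 that did not pass there. Over the 5 genes above 0 in DMSO, the median log2 fold change was 4.84 for DSF and 0.61 for NSM, and it reached 7.11 for the combination. The metallothionein share of all normalised counts was 0.0121 to 0.0137% in DMSO, 0.442 to 0.586% in DSF, 0.0133 to 0.0162% in NSM and 1.52 to 1.66% in DSF+NSM.

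**Figure D1:**
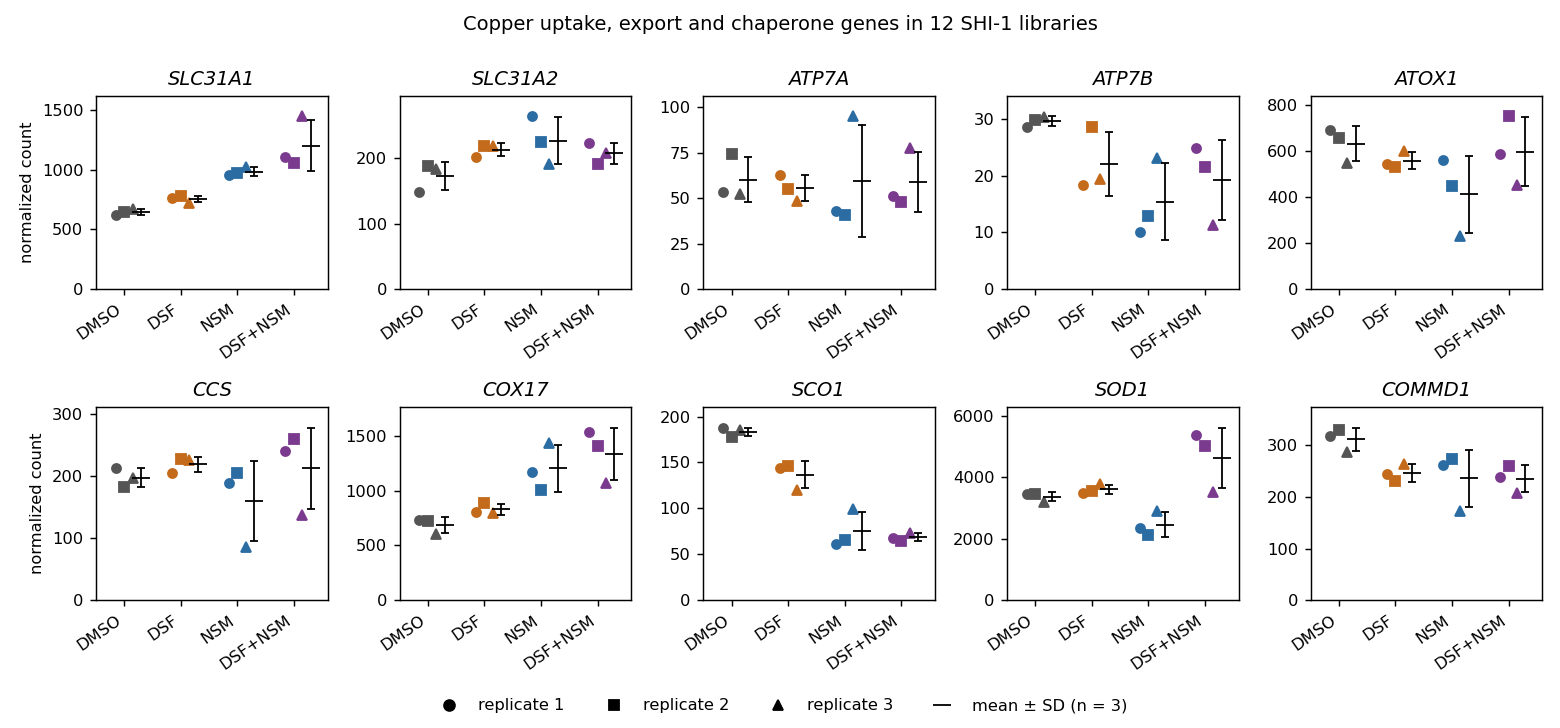
Normalised read counts of the 10 copper genes in each of the 12 libraries (points) with group means and SD (n = 3), 1 panel for each gene with its own axis. SLC31A1 and COX17 are lowest in DMSO and highest in DSF+NSM, SCO1 is highest in DMSO, and SOD1 is lowest in NSM.

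SLC31A1, the high-affinity importer, had group means that rose in the order DMSO, DSF, NSM and DSF+NSM, but not every step passed the test. Its normalised counts were 621, 648 and 667 in DMSO, 762, 777 and 723 in DSF, 953, 968 and 1022 in NSM, and 1103, 1053 and 1445 in DSF+NSM. No library of one group overlapped with another group, and the DSF+NSM group was spread by its replicate 3. Against DMSO, groups did not overlap for 60.9% (DSF), 57.0% (NSM) and 69.3% (DSF+NSM) of all genes. SLC31A1 rose 1.52-fold with NSM (log2 fold change 0.60, SE 0.13, limma adjusted p = 0.00253) and 1.84-fold with DSF+NSM (0.88, SE 0.13, adjusted p = 0.000143). The value with DSF was 0.22 (95% interval −0.06 to 0.51, adjusted p = 0.267). The value of DSF+NSM against NSM was 0.28 (limma adjusted p = 0.117) and turned to −0.24 under equal sums. With equal sums the values for NSM (0.33, adjusted p = 0.0921) and DSF+NSM (0.10, adjusted p = 0.593) did not pass. Relative to the median gene under that scaling they were 0.59 and 0.85, nearly the same as without it by construction.

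SLC31A2 (CTR2), a paralog found mainly on endosomes and lysosomes, had 148, 188 and 183 normalised counts in DMSO, 201, 219 and 219 in DSF, 264, 225 and 192 in NSM, and 224, 192 and 208 in DSF+NSM. All 9 treated libraries were above the 3 DMSO libraries. The log2 fold changes of 0.31, 0.39 and 0.27 did not pass the test (adjusted p = 0.227, 0.0712 and 0.195 with limma), and without replicate 3 of NSM the NSM value was 0.50 (adjusted p = 0.01). Its exons share 1582 bases with FKBP15 on the opposite strand, and whether strand was used in counting is not given in the sources used here, so reads of the pair may not be separated. SLC31A2 (chr9:113150976-113164140, plus strand) and SLC31A1 (chr9:113221544-113264492, plus strand) are neighbours on chromosome 9 in GRCh38.

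ATP7A and ATP7B, the ATPases that export copper, were low in every library. ATP7A (chrX:77910690-78050395, plus strand) was between 40.6 and 94.9 normalised counts over the 12 libraries, and the lowest and highest were both in NSM. Its log2 fold changes of −0.10, −0.11 and −0.05 for DSF, NSM and DSF+NSM carried 95% intervals of about 0.70 to either side and turned in sign when single libraries were left out. Its exons share 97 bases with PGK1 and 382 with the pseudogene C4orf46P2 on the same strand, and 689 with PGAM4 on the opposite strand. ATP7B (chr13:51930436-52012125, minus strand) was at 28.6, 29.7 and 30.3 in DMSO, 18.3, 28.6 and 19.3 in DSF, 10.1, 13.0 and 23.1 in NSM, and 24.8, 21.6 and 11.3 in DSF+NSM. The DMSO libraries were tightly grouped and all NSM and DSF+NSM libraries lay below them. ATP7B fell with NSM by 0.98 on the log2 scale (SE 0.37, limma adjusted p = 0.0441), and this call was lost in 9 of the 12 fits that left out 1 library (any library of DMSO or DSF, replicate 1 or 2 of NSM, or replicate 2 of DSF+NSM), with adjusted p up to 0.144.

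**Figure D2:**
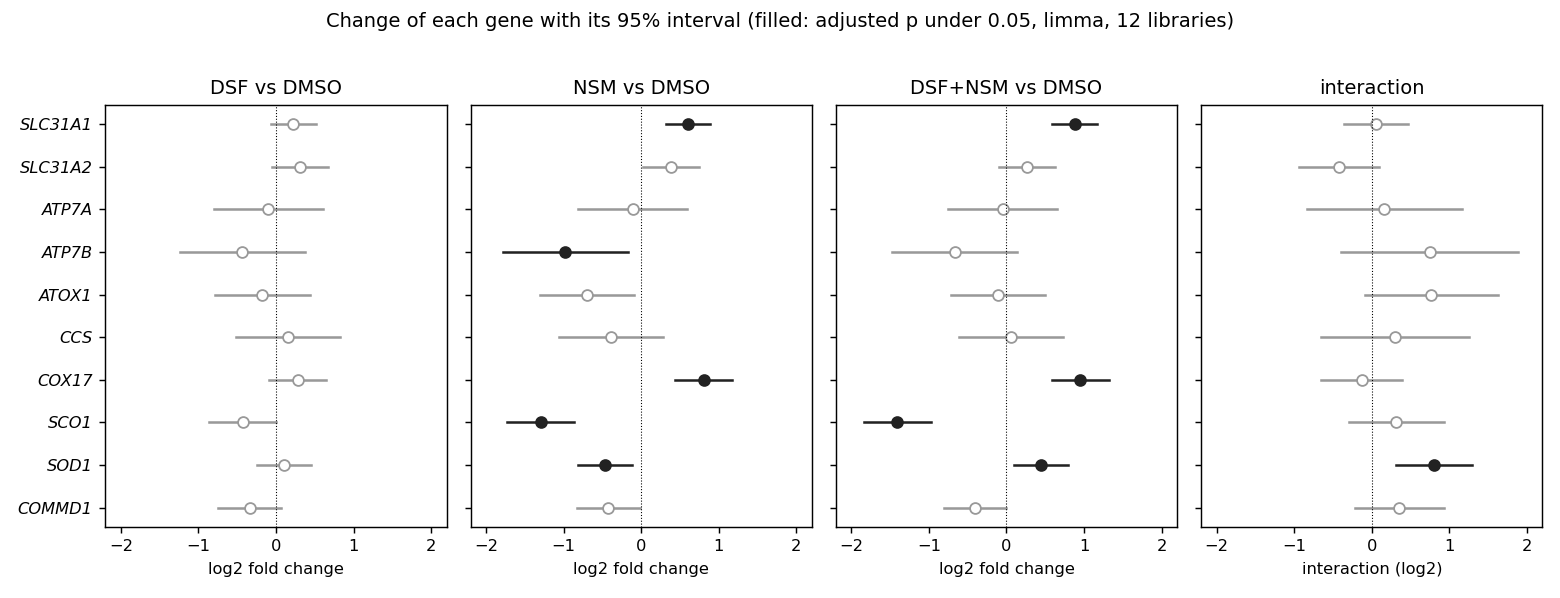
Log2 fold changes of the 10 copper genes for DSF, NSM and DSF+NSM against DMSO and their interaction (points) with 95% intervals from the limma fit over 12 libraries, filled where the adjusted p is under 0.05. No DSF value is filled, SLC31A1, COX17 and SCO1 are filled for NSM and DSF+NSM, and SOD1 lies below 0 with NSM and above 0 with DSF+NSM, with its interaction filled.

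Of the cytosolic chaperones, ATOX1 (chr5:151742316-151772532, minus strand), which feeds the ATPases, had 692, 654 and 547 normalised counts in DMSO, 542, 529 and 599 in DSF, 560, 448 and 230.1 in NSM, and 586, 750.5 and 451 in DSF+NSM. Replicate 3 was the lowest of NSM and of DSF+NSM, and the DSF+NSM group overlapped with DMSO. The NSM value of −0.70 did not pass (adjusted p = 0.0549 with limma), although it did under several other settings, with adjusted p of 0.0111 under equal sums, 0.0117 without replicate 1 of NSM and 5.63e-07 with library weights. The exons of ATOX1 share 130 bases with G3BP1 on the opposite strand. CCS (chr11:66593153-66606019, plus strand), the chaperone of SOD1, had 212, 181 and 197 in DMSO, 204, 226 and 225 in DSF, 189, 204 and 86.1 in NSM, and 240.3, 259 and 137 in DSF+NSM. Its log2 fold changes of 0.15, −0.39 and 0.06 did not pass, and without replicate 3 of NSM the NSM value was 0.00. Replicate 3 was thus the lowest library of its group for both chaperones in NSM and in DSF+NSM.

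The mitochondrial carriers moved in opposite directions. COX17 (chr3:119654513-119677454, minus strand), which carries copper in the intermembrane space, had 730, 722 and 603 normalised counts in DMSO, 804, 891 and 795 in DSF, 1166, 1011 and 1434 in NSM, and 1533, 1407 and 1068 in DSF+NSM. All treated libraries were above all DMSO libraries, and NSM and DSF+NSM overlapped each other. COX17 rose 1.75-fold with NSM (log2 fold change 0.80, SE 0.17, adjusted p = 0.00181) and 1.93-fold with DSF+NSM (0.95, SE 0.17, adjusted p = 0.000469, limma). With equal sums the DSF+NSM value was 0.17 (adjusted p = 0.334) and 0.92 relative to the median gene, the latter being nearly fixed by construction. Its exons share 383 bases with POPDC2 on the same strand.

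SCO1 (chr17:10672474-10698375, minus strand), which receives copper from COX17 and delivers it to cytochrome c oxidase, changed most of the 10 genes. It had 187, 178 and 185 normalised counts in DMSO, 144, 146 and 120.1 in DSF, 61.7, 65.8 and 99.6 in NSM, and 68.2, 64.2 and 73.1 in DSF+NSM. The DMSO libraries were above all DSF libraries, which in turn were above all NSM and DSF+NSM libraries. SCO1 fell to 0.407 of DMSO with NSM (log2 fold change −1.30, SE 0.20, adjusted p = 0.000204) and to 0.377 with DSF+NSM (−1.41, SE 0.20, adjusted p = 8.43e-05, limma). Both calls held in all 22 alternatives run, with DSF+NSM values from −2.18 to −1.30. The DSF value was −0.43 (95% interval −0.86 to 0.01, adjusted p = 0.159). The exons of SCO1 share 117 bases with a long non-coding RNA on the opposite strand.

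SOD1 (chr21:31659666-31668931, plus strand), the cytosolic copper and zinc superoxide dismutase, was the most abundant of the 10. Its normalised counts were 3445, 3455 and 3208 in DMSO, 3491, 3570.5 and 3777 in DSF, 2352, 2127 and 2911 in NSM, and 5378, 5028 and 3534 in DSF+NSM. All NSM libraries lay below all others, whereas the DSF+NSM libraries lay above DMSO and replicate 3 among them fell within the DSF range. SOD1 fell with NSM by 0.46 on the log2 scale (SE 0.16, adjusted p = 0.0300) and rose with DSF+NSM by 0.44 (SE 0.16, adjusted p = 0.0347, limma). Each call was lost without any 1 of the DMSO libraries and without replicate 1 or 2 of the treated group, with adjusted p up to 0.108 for NSM and 0.146 for DSF+NSM. Under equal sums the DSF+NSM value turned to −0.34 (adjusted p = 0.0405), which was 0.41 above the median gene. Pseudogenes SOD1P1, SOD1P2 and SOD1P3 are annotated, and reads shared with them cannot be told apart here. The same holds for SLC31A1 (SLC31A1P1), COX17 (COX17P1) and ATP7B (ATP7BP1).

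COMMD1 (chr2:61888724-62147247, plus strand), which binds ATP7B and sorts membrane proteins with the CCC complex, had 319, 330.3 and 286 normalised counts in DMSO, 244, 230.5 and 265 in DSF, 261, 274 and 173 in NSM, and 239, 260.0 and 207 in DSF+NSM. All treated libraries were below all DMSO libraries. The log2 fold changes were −0.34, −0.43 and −0.41, with adjusted p of 0.233, 0.075 and 0.0836 (limma), so none passed. Without replicate 3 of NSM the DSF+NSM value of −0.41 passed (adjusted p = 0.00885). Its exons share 741 bases with the pseudogene RPSAP26 on the same strand and 251 with a long non-coding RNA on the opposite strand.

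With NSM against DMSO, 5 of the 10 genes passed the test, SLC31A1 and COX17 as higher and ATP7B, SCO1 and SOD1 as lower, beside 49.1% of all genes (25.4% higher, 23.7% lower). With DSF+NSM, 4 passed, SLC31A1, COX17 and SOD1 as higher and SCO1 as lower, beside 52.8% of all genes (28.3% higher, 24.5% lower). The shares of the 10 that passed thus stood close to or below those of the whole table. The median log2 fold change of the 10 was −0.41 for NSM and 0.01 for DSF+NSM, beside 0.01 and 0.03 over all genes. Groups did not overlap for 7 genes in each comparison, beside 57.0% and 69.3% of all genes. With equal sums 8 of the 10 passed for DSF+NSM, all of them as lower, beside 67.5% of all genes (11.3% higher, 56.3% lower). These comparisons share the DMSO libraries, so their values are given side by side and not as independent results.

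The combination was next set against DSF with copper and against NSM. Against DSF, 3 genes passed, beside 43.1% of all genes: SLC31A1 (0.66, adjusted p = 0.00179) and COX17 (0.67, adjusted p = 0.00648) were higher and SCO1 (−0.98, adjusted p = 0.00177, limma) was lower. Under equal sums SLC31A1 (−0.03) and COX17 (−0.01) were close to 0. Against NSM, SOD1 was the gene that passed, beside 38.6% of all genes, at 0.90 (95% interval 0.56 to 1.25, adjusted p = 0.000913, limma), and this call held in all 22 alternatives. SLC31A1 was 0.28 higher (adjusted p = 0.117) and ATOX1 0.59 higher (adjusted p = 0.113). COX17 (0.15) and SCO1 (−0.11) had intervals that included 0, so the DSF+NSM and NSM levels of these genes were not told apart.

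The interaction term is the log2 change with both drugs less the added log2 changes of DSF with copper and of NSM. This term passed for SOD1 alone of the 10 genes, beside 26.1% of all genes. It was 0.80 on the log2 scale (SE 0.23, 95% interval 0.31 to 1.30, adjusted p = 0.0205, limma). The adjusted p was 0.051 to 0.059 without replicate 1 or 2 of DMSO, replicate 1 of DSF, or replicate 1 or 2 of DSF+NSM, and 0.141 under equal sums (0.39, or 0.79 above the median gene). The other 9 genes had values from −0.42 (SLC31A2) to 0.77 (ATOX1), none of which passed. For SLC31A1 it was 0.05 and for COX17 −0.13. A direct comparison of NSM with DSF, added after the values were seen, called 4 of the 10 genes beside 44.4% of all: SLC31A1 (0.38, adjusted p = 0.0353) and COX17 (0.52, adjusted p = 0.0241) were higher with NSM, and SCO1 (−0.87, adjusted p = 0.00400) and SOD1 (−0.56, adjusted p = 0.0133) were lower. The SLC31A1 and COX17 calls were lost under equal sums and where only the DSF and NSM libraries entered, and the SLC31A1 call held in 5 of the 12 fits with 1 library left out while the COX17 call was lost without replicate 1 or 3 of DSF.

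**Figure D3:**
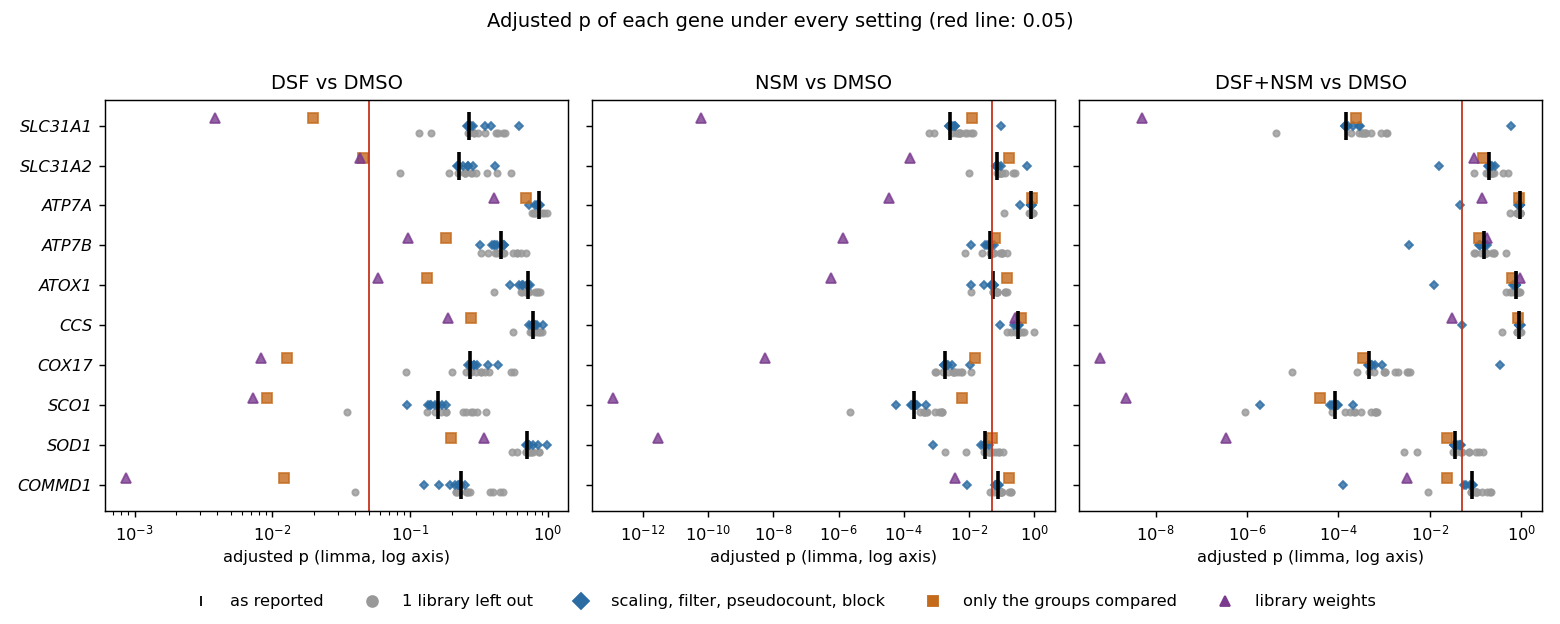
Adjusted p of each copper gene (limma, log axis) for DSF, NSM and DSF+NSM against DMSO, as reported (black bar) and under each alternative setting (symbols), with the 0.05 threshold as a red line. SCO1 lies left of the line in every setting for NSM and DSF+NSM, and COX17 does so for NSM. For NSM, CCS lies right of it in every setting and the other genes straddle it. For DSF+NSM every gene except SCO1 straddles it, and 5 genes cross it for DSF with library weights or with only the groups compared.

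Genes that work with these 10 were followed as counts, from lists written with earlier results of these data known. Of 20 further genes for mitochondrial copper delivery and cytochrome c oxidase assembly, 4 fell and none rose with DSF, 9 fell and 2 rose with NSM, and 10 fell and 1 rose with DSF+NSM, with median log2 fold changes of −0.20, −0.35 and −0.58. Over all tested genes 17.8%, 49.1% and 52.8% passed in these comparisons, and the counts of this list and of those that follow are to be read against those shares. COX16, an assembly factor of the oxidase, had 716 to 908 normalised counts in DMSO and 275 to 390.3 in DSF+NSM (−1.37, limma adjusted p = 2.65e-05), and it also fell with DSF (−0.86, adjusted p = 0.00474). TMEM177, which binds the COX20 and SCO assembly factors, went from 232 to 260.1 in DMSO to between 11.2 and 16.3 in DSF+NSM (−4.15, adjusted p = 5.72e-07), and PET117 fell by 1.35 on the log2 scale (adjusted p = 0.000133, limma). COX16, TMEM177 and PET117 were named because their changes were the largest called in this list. SCO1 also fell with DSF+NSM, whereas COX17 rose, as did COA6 of the list (0.43, limma adjusted p = 0.0483). In all, 11 of the 20 passed, near the share of all genes. With NSM alone the log2 fold changes were −1.30 for COX16, −2.96 for TMEM177 and −0.42 for PET117.

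Among 14 further genes of the COMMD family and its CCC and retriever trafficking complexes, none passed with DSF, 3 rose and 4 fell with NSM, and 4 rose and 3 fell with DSF+NSM. Beside these counts and those below stand 17.8%, 49.1% and 52.8% of all tested genes for DSF, NSM and DSF+NSM. CCDC93, a CCC subunit, rose with DSF+NSM by 0.88 (limma adjusted p = 0.000171) and CCDC22 by 0.89 (adjusted p = 0.0172), whereas COMMD8 fell by 0.92 on this scale. Of 13 tested metalloreductases and other copper-handling genes, 1 rose and 2 fell with DSF, 5 rose and 3 fell with NSM, and 3 rose and 5 fell with DSF+NSM. STEAP3, a reductase able to reduce copper and iron, fell from 120 to 144 normalised counts in DMSO to between 11.3 and 21.3 in DSF+NSM (−3.09, adjusted p = 1.69e-06). PRNP, the copper-binding prion protein, rose from 239 to 274 to between 1687 and 1925 (2.86, adjusted p = 2.00e-07, limma). CUTC fell by 0.94. With NSM alone the log2 fold changes were −2.76 for STEAP3, 2.16 for PRNP and 0.23 for CUTC. Of 18 secreted or vesicular copper enzymes and carriers, 8 were tested. None passed with DSF, 3 rose and 2 fell with NSM, and 3 rose and 1 fell with DSF+NSM. With DSF+NSM, AOC2 (2.11) and AOC3 (2.86) were among the higher and PAM (−1.42), which amidates peptides, was the lower. Their values with NSM alone were 2.18, 2.79 and −0.57.

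**Figure D4:**
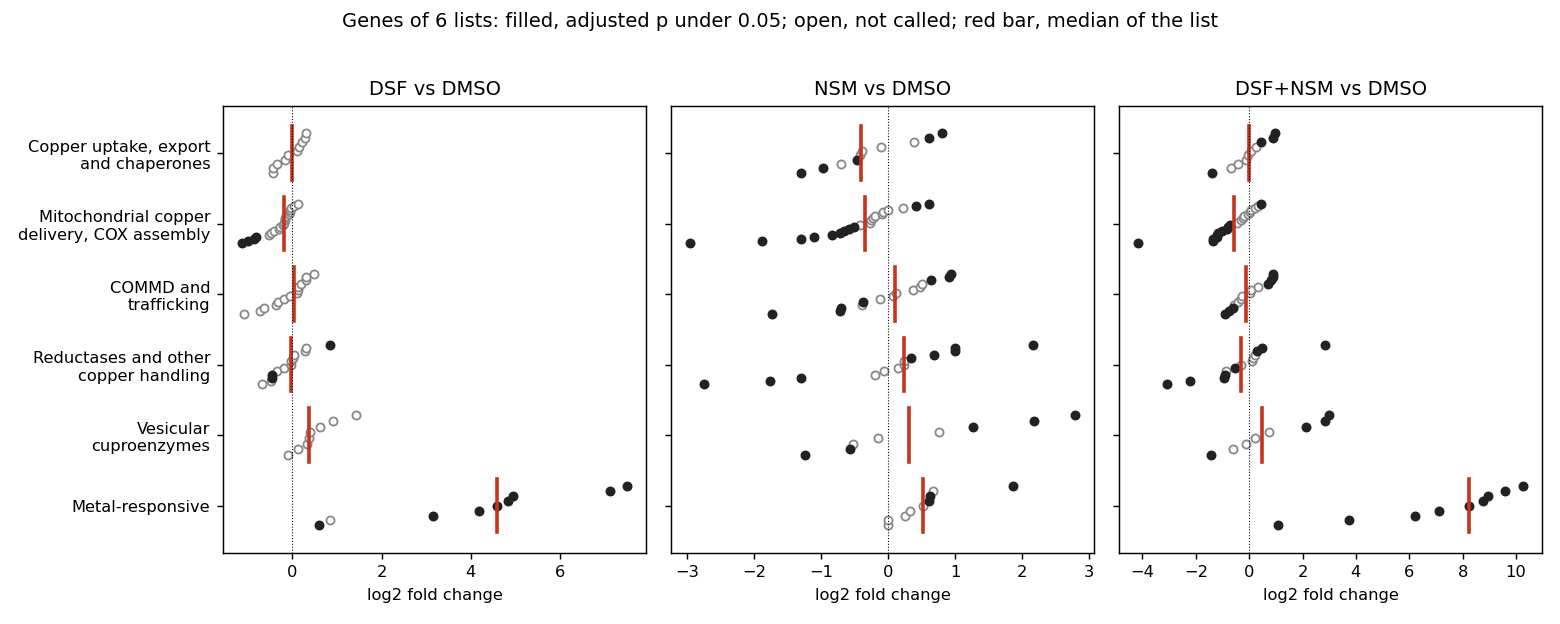
Log2 fold change of each tested gene (points) in the copper set and the related lists for DSF, NSM and DSF+NSM against DMSO, filled where the adjusted p is under 0.05, with list medians as red bars and a separate axis for each comparison. The metal-responsive genes lie far above 0 in DSF and DSF+NSM, where the 4 metallothioneins listed at 0 in DMSO are drawn at fitted values that depend on the pseudocount, while the copper genes stay between −1.41 and 0.95.

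Genes outside the set with the pattern most like SLC31A1 over the 12 libraries were CCDC93 (Pearson r = 0.983), RCAN1 (0.979) and HSPA5 (0.976). HSPA5, the chaperone of the endoplasmic reticulum, had a group mean of 12055 normalised counts in DMSO, and of 19382, 39401 and 58619 in the DSF, NSM and DSF+NSM groups, the order that SLC31A1 also showed. The genes most like SCO1 were GINS1 (0.976), a DNA replication factor, HEATR3 (0.975) and NSUN2 (0.973), an RNA methyltransferase. GINS1 had group means of 1013, 746, 301 and 228 in the same order of groups. These correlations are over libraries of 4 groups that differ in mean, share their normalisation, and are given as descriptions without a test.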

How the data were processed

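Poly(A) RNA from SHI-1 cells was sequenced in 12 libraries, 3 independent experiments for each of 4 groups. The authors deposited 1 table per library with the same 14866 genes, the values being normalised counts scaled jointly over the 24 libraries named in the file headers (a signal unit, not whole reads: 32.2 to 32.9% of values above 0 were whole multiples of the smallest step within a tolerance of 0.01). The sources differ on how they were made: the supplementary methods name STAR and Salmon, and the submitters' processing notes list bcl2fastq 2.19, Trimmomatic, Bowtie2, Picard, featureCounts and DESeq2 with hg38. Strand use is not given in the sources used here.

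Genes with at least 10 normalised counts in at least 3 libraries (13502) were fitted as log2(normalised count + 1) with limma 3.58.1 in R 4.3.3, with trend and robust empirical Bayes, on all 12 libraries in 1 model of group means. Tests were two-sided, with Benjamini-Hochberg adjustment over all 13502 genes and a threshold of 0.05, and intervals are 95%. P-values measure the spread between these cultures. The count model of the study was replaced by limma because the values are not whole counts. Depth was estimated from the smallest step in each library. The pipeline was tested on simulated data, with 200 of 13502 genes changed and 1 spread per gene for all groups. For DSF, NSM and DSF+NSM against DMSO, 77, 89 and 87% of changes of 2 on the log2 scale were recovered. Of changes of 1, 45, 46 and 45% were recovered, and 6.15, 6.25 and 7.04% of calls were false. In the real data the spread differed between groups, so these rates do not carry over to the real comparisons.

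The 10 genes and the related lists were chosen with earlier results of these data known, and promoter motifs after the values were seen. From each related list the 3 called genes with the largest DSF+NSM change and a mean of at least 50 were named, with every tested metal-responsive gene, and the 3 genes best correlated with SLC31A1 and with SCO1, the called gene that changed most. Coordinates and exon lengths are from GENCODE 44 (GRCh38), and promoters from RefSeq (GRCh38.p14). Alternatives were other scalings, filters, pseudocounts (0.1 and 10), only the groups compared, library weights, a replicate block, and each library left out.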

Additional observations from a re-analysis of the deposited data

Results flagged for a closer look

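The change of SOD1 with the combination differed from the sum of its changes with DSF plus copper and with NSM. By a test of the interaction itself the difference was 0.80 on the log2 scale (SE 0.23, adjusted p = 0.0205 with limma). The parts of DSF and of the added copper cannot be told apart. DSF moved SOD1 by 0.10, NSM by −0.46 and DSF+NSM by 0.44 relative to DMSO, so that all 3 NSM libraries (2127 to 2911 normalised counts) lay below all 3 DSF+NSM libraries (3534 to 5378). The interaction kept its sign in every alternative run. It lost its call under equal sums (0.39, adjusted p = 0.141 with limma). Relative to the median gene it was 0.79 there and 0.80 as reported. That likeness is fixed by construction, because equal sums shifts all genes of a library alike. The call was also lost without any 1 of 5 libraries (replicates 1 and 2 of DMSO, replicate 1 of DSF, replicates 1 and 2 of DSF+NSM). Ribosomal RNA shares and summed normalised counts were also highest in DSF+NSM, and their part in this value was not tested.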

How the results depend on the processing

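Each value (for NSM against DSF, those of 5 genes) was recomputed with 3 other scalings (median of ratios, trimmed mean of M values, equal sums), 2 other filters, 2 other pseudocounts, only the groups compared, library weights, the replicate number as a block, and each of the 12 libraries left out. Of 1420 recomputed values, 1260 kept direction and side of the threshold, 46 lost a call, 59 gained one and 62 changed sign, of which 2 also lost and 5 also gained a call. For DSF against DMSO the count of copper genes called, 0 as reported, was 5 with only the groups compared and 5 with library weights, and 0 to 2 with 1 library left out, beside 54.0%, 60.5% and 6.77 to 41.2% of all genes. For NSM it was 3, 9 and 3 to 6 in the same order, against 5 as reported, beside 37.6%, 82.3% and 40.2 to 59.9% of all genes. Library weights also gave 5 for DSF+NSM against NSM (72.5% of all genes) and 6 for the interaction (66.2%), where 1 was reported, and the ranges with 1 library left out were 1 to 2 (27.3 to 49.1%) and 0 to 2 (19.3 to 45.8%). Equal sums gave 8 for DSF+NSM against DMSO, 6 against DSF and 4 against NSM, beside 67.5%, 61.0% and 54.6% of all genes. The weight estimates stopped before full convergence.

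Equal sums turned the following log2 values: against DMSO with DSF+NSM, SLC31A2 to −0.51, CCS to −0.72 and SOD1 to −0.34, against DSF, SLC31A1 to −0.030, ATP7A to −0.62, ATOX1 to −0.62, COX17 to −0.014 and SOD1 to −0.35, against NSM, SLC31A1 to −0.24, ATP7A to −0.44, ATP7B to −0.17, CCS to −0.061, COX17 to −0.37 and COMMD1 to −0.49, and in the interaction, SLC31A1 to −0.36, ATP7A to −0.24, CCS to −0.12, SCO1 to −0.094 and COMMD1 to −0.058. This scaling moved the median of all genes by −0.78, −0.68, −0.51 and −0.41 in these comparisons. Library weights turned CCS to 0.10 (NSM against DMSO), ATOX1 to 0.0084 (DSF+NSM against DMSO), ATP7A to −0.16, ATP7B to 0.044, CCS to 0.15 and COMMD1 to 0.012 (against DSF), SCO1 to 0.020 and COMMD1 to −0.16 (against NSM), and SLC31A1 to −0.045 and COX17 to 0.26 (interaction). The trimmed mean turned COMMD1 to −0.013 against NSM. Equal sums and the trimmed mean each scale all genes of a library by 1 constant. The cause of the turns with library weights was not tested.

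With 1 library left out, values that changed sign ranged as follows. ATP7A ran from −0.19 to 0.061 (DSF), −0.50 to 0.11 (NSM), −0.26 to 0.12 (DSF+NSM), −0.16 to 0.18 (against DSF), −0.15 to 0.45 (against NSM) and −0.052 to 0.55 (interaction). CCS ran from −0.62 to 0.0001 (NSM), −0.11 to 0.34 (DSF+NSM), −0.26 to 0.19 (against DSF) and −0.094 to 0.58 (interaction). ATOX1 ran from −0.29 to 0.079 (DSF+NSM) and −0.11 to 0.25 (against DSF). Against DSF, ATP7B ran from −0.44 to 0.092, COMMD1 from −0.14 to 0.019 and SLC31A2 from −0.092 to 0.019. Against NSM, SCO1 ran from −0.24 to 0.10 and COMMD1 from −0.19 to 0.14. In the interaction, COX17 ran from −0.25 to 0.022 and SLC31A1 from −0.088 to 0.14.

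Same-numbered libraries were at most weakly alike. Of 18 same-numbered pairs, correlations of the deviations from group means ran from −0.06 to 0.28, and 2 were above 0.1. The highest was between replicate 3 of NSM and replicate 3 of DSF+NSM. In 10 of the 18 the library of the same number was the best correlated one, so a weak pairing may be present. The fit as reported had no replicate block. With the replicate block the counts of copper genes called against DMSO were 0 (DSF), 5 (NSM) and 4 (DSF+NSM), those of DSF+NSM against DSF and NSM were 3 and 1, and that of the interaction was 1. ATP7B (adjusted p = 0.0583, limma) left and ATOX1 (adjusted p = 0.0290) joined the genes called with NSM under this block. With 3 libraries a group, small changes can be missed. In simulated data with 200 of 13502 genes changed, 45% of genes changed by 1 on the log2 scale were recovered for DSF. A far larger share of genes passed in the real comparisons (17.8% for DSF), which makes the adjusted threshold less strict. Each gene also had 1 spread for all groups in the simulation. In the real data, rank correlations within a group reached down to 0.939 in NSM and 0.994 in DMSO. The simulated rate therefore does not carry over to the real comparisons.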
